A study of Homo sapiens with 3 samples.

Results

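The effect of compound 2 on messenger RNA was read from 2 of the 3 libraries of the series, the library from cells given compound 2 and the library from cells given the vehicle DMSO. HCC827 is an established line of human lung adenocarcinoma cells that carries an activating mutation of EGFR. Compound 2 was given at 5 μM for 24 h, compound 1 at the same dose for the same time, and the labels gave DMSO with no time. The labels name no genetic change in any of the 3 groups, and each held 1 library, so every difference below lies between single libraries and has no replicate error, p-value or interval. Levels are in TPM, the length-corrected signal of a gene as a share of the fixed total of its library. A log2 ratio is that of TPM + 1, compound 2 over DMSO unless compound 1 is named. It was computed for 11600 of the 20332 listed genes, those whose mean over the 3 libraries reached 1 TPM, called measured genes here.

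The title of the series describes the compounds as daphnane diterpenoids, plant products of which several are known to bind protein kinase C, and names the DNA damage response under ATR. Protein kinase C is an enzyme family of which most members are switched on by the lipid diacylglycerol. Its signals reach the transcription factor NF-kB and, through the ERK kinases, the AP-1 factors. NF-kB is held in the cytoplasm by inhibitor proteins and on release induces cytokines, adhesion molecules and its own inhibitors. The kinase ATR is brought by its partner ATRIP to stalled replication forks, where it activates the kinase CHK1, which in turn holds back origin firing and mitosis.

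The libraries were alike in breadth, with 14154 genes above 0 after compound 2 and 14409 after DMSO, and the 100 most abundant genes took 32.4% and 34.9% of the signal. The label of a lung epithelial line was set against 12 epithelial and lung adenocarcinoma markers, of which 10 were measured. Their summed level was 8836 TPM after compound 2 and 16296 TPM after DMSO. EPCAM, CDH1 and KRT7 were within 2-fold, with log2 ratios of 0.19, 0.34 and -0.05. KRT8, KRT18, KRT19, NAPSA, NKX2-1 and MUC1 were at least 2-fold lower, between -2.05 and -1.03, and EGFR was higher (1.31). All 10 were above 5 TPM in both libraries. SFTPC, the surfactant protein C gene of alveolar type II cells, was at 0 in both libraries, and SFTPB, for surfactant protein B, was at 0 TPM after compound 2 and 0.186 TPM after DMSO. Of 9 fibroblast markers 2 were measured, with a summed level of 2.71 TPM after compound 2 and 3.92 TPM after DMSO, and COL1A2 and LUM were at 0 in both. Of 7 endothelial markers none was measured, with sums of 0.467 and 1.11 TPM after compound 2 and DMSO. Leukocyte markers summed to 439 TPM after compound 2 and 256 TPM after DMSO, of which CD68, a lysosomal protein that many cells make, gave 436 and 243 TPM. PTPRC, which encodes the leukocyte antigen CD45, was at 0 TPM after compound 2 and 0.0640 TPM after DMSO.

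After compound 2, 1467 genes were at least 2-fold higher than after DMSO, which is 12.6% of the measured genes, and 761 were at least 2-fold lower, which is 6.56%. These shares are the background for every list below. The median log2 ratio of all measured genes was 0.09. At the 4-fold limit 207 genes were higher and 109 lower, and at the 8-fold limit 47 were higher and 21 lower. The higher genes took 12.4% of the signal after compound 2 and 3.91% after DMSO, while the lower genes took 3.07% and 8.16%. Higher genes made up 65.8% of those past 2-fold, a share that was 57.0% under median-of-ratios scaling and 47.8% once the trend with transcript length and GC content was subtracted (791 higher and 864 lower). In bulk RNA, fewer cells of a type and less RNA per cell cannot be told apart, and this holds for all genes named below.

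**Figure D1:**
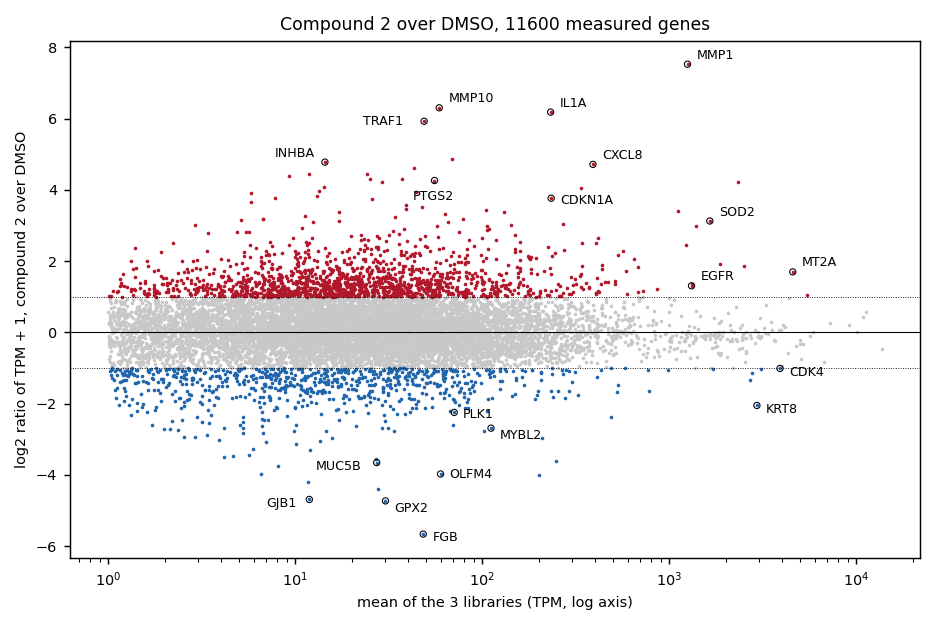
Log2 ratio of TPM + 1 after compound 2 over DMSO (y axis) against the mean level of the 3 libraries in TPM (x axis, log scale), 1 point for each of 11600 measured genes. Red points are at least 2-fold higher and blue points at least 2-fold lower. Both kinds occur from the lowest to the highest levels, MMP1 stands highest at 7.53 and FGB lowest at -5.66.

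Of 25 measured NF-kB subunit and feedback genes, 14 passed 2-fold upwards and 1 downwards, with a median log2 ratio of 1.05 against 0.09 for all measured genes. Once the trend with transcript length and GC content was subtracted 11 were higher and none lower, with a median of 0.74. TRAF1, an adaptor of tumour necrosis factor receptors, was at 104 TPM after compound 2 and 0.726 TPM after DMSO (log2 ratio 5.93). TNFAIP3, which encodes the ubiquitin-editing inhibitor A20, was at 84.9 and 6.54 TPM after compound 2 and DMSO (3.51). The deubiquitinase gene CYLD, a further brake, was at 37.2 TPM after compound 2 and 7.52 TPM after DMSO (2.16). Subunits of the noncanonical branch belonged to the same group. RELB was at 30.8 TPM after compound 2 and 5.85 TPM after DMSO (2.22), and NFKB2, the p100 precursor, was at 114 and 25.2 TPM (2.14). TNIP1, which binds A20, was at 518 TPM after compound 2 and 141 TPM after DMSO (1.87). The genes of the kinases that free NF-kB did not pass 2-fold, with log2 ratios of 0.54 for IKBKB, 0.75 for CHUK and -0.58 for MAP3K14. Nor did the regulatory subunit gene IKBKG (-0.14, or 0.21 with the trend with transcript length and GC content subtracted) or RELA (0.44). BCL3, an atypical inhibitor family member, was the lower one (-1.23, or -0.87 with the trend with transcript length and GC content subtracted).

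Secreted interleukins and growth factors of leukocytes held 12 higher and 1 lower gene among 18 measured, and a median log2 ratio of 1.31. The gene of interleukin 1 alpha, IL1A (chromosome 2, 112773915 to 112784590 on GRCh38), was at 493 TPM after compound 2 and 5.79 TPM after DMSO (6.18). CSF2, which encodes the granulocyte-macrophage colony-stimulating factor, was at 264 and 24.7 TPM (3.37), and IL23A, a subunit of interleukin 23, at 75.8 and 2.12 TPM (4.62) after compound 2 and DMSO. IL1A was thus the most abundant of these cytokine messages after compound 2, whereas CSF2 lay above it after DMSO. IL6 was at 57.6 TPM after compound 2 and 3.4 TPM after DMSO (3.74), IL1B at 61.8 and 5.60 TPM (3.25), and IL32 at 46.5 and 1.42 TPM (4.30). TNFSF15, a tumour necrosis factor family ligand, was at 62.5 TPM after compound 2 and 3.15 TPM after DMSO (3.94). IL36G, of the interleukin 1 family, was listed at 0 after DMSO and at 4.70 TPM after compound 2. IL1A, IL1B, IL37 and IL36G are consecutive measured genes on chromosome 2, and the log2 ratios of the 4 lay between 1.78 and 6.18.

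Chemokines, which draw neutrophils and other leukocytes, held 6 higher and 1 lower gene among 9 measured, with a median of 1.22. That median was -0.01 when unmeasured chemokines were let in, and those at 0 in both libraries then count as no difference. CXCL8, which encodes interleukin 8 (chromosome 4, 73740506 to 73743716), was at 733 TPM after compound 2 and 26.9 TPM after DMSO (4.72). CXCL3 was at 116 and 17.2 TPM (2.68), CCL20 at 52.6 and 13.0 TPM (1.94), and CXCL2 at 102 and 34.9 TPM (1.52) after compound 2 and DMSO. CXCL2 shares 20.5% of its 31-base words with other genes, CXCL1 the closest, so its share of the reads is less certain. CXCL5 reached the highest level of the chemokines, 1436 TPM after compound 2 and 615 TPM after DMSO (1.22). CX3CL1, the membrane-bound fractalkine, went the other way, at 3.20 TPM after compound 2 and 17.3 TPM after DMSO (-2.13).

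The windows from 250 bases before to 50 bases after the annotated start of 3 of these genes are shown because each holds a motif of the factors named above, and were chosen for that. The windows of IL6 and NFKBIA also held a match, whereas that of ICAM1 held none to the NF-kB consensus, that of INHBA none to the AP-1 motif and that of PTGS2 none to either. They are RefSeq windows on GRCh38.p14, written 5′ to 3′ on the gene's strand. Matches to the AP-1 motif TGANTCA or to the NF-kB consensus are in capitals, both searched on both strands. The NF-kB consensus asks for GGG first and CC last, so near matches are not in capitals. The CXCL8 window holds tggaatttcc and that of ICAM1 tggaaattcc, which each depart from it at the first base. An absent match therefore does not mean an absent site. The CXCL8 window is chr4:73740319-73740618 on the plus strand, with an AP-1 match in capitals. That of IL23A is chr12:56338634-56338933 on the plus strand, with an NF-kB match before an AP-1 match. That of CXCL3 is chr4:74038640-74038939 on the minus strand, with a pair of overlapping NF-kB matches.
CXCL8: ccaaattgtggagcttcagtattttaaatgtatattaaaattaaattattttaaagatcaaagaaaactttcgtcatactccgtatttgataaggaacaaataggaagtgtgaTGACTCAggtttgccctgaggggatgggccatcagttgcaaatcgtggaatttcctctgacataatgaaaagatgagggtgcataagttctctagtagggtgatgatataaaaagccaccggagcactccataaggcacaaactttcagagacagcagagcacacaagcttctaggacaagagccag
IL23A: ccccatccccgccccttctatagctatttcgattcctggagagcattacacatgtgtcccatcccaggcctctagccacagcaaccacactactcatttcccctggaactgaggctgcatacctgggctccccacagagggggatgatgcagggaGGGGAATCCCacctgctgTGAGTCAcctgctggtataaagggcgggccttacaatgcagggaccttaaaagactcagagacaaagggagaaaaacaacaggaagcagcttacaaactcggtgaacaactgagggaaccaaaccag
CXCL3: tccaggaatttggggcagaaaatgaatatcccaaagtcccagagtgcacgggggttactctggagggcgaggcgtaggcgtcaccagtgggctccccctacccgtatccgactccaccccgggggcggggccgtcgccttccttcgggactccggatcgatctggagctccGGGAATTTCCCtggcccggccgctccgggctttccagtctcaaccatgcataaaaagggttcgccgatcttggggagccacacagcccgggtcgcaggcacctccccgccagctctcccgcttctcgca

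Among the 6686 measured genes with exactly 1 such window in the table, the NF-kB consensus was matched in 6.28% and the AP-1 motif in 4.31%. Of 801 such genes at least 2-fold higher after compound 2, 7.62% held the NF-kB consensus and 6.24% the AP-1 motif, and of 418 at least 2-fold lower, 6.94% and 4.31%. Of 115 genes at least 4-fold higher, 11.3% held the NF-kB consensus and 16.5% the AP-1 motif, and of 56 at least 4-fold lower, 3.57% and 10.7%. Windows of the 4-fold groups were lower in GC than the rest, with a median of 64.0% in the higher and 57.8% in the lower genes against 65.7% in all. Within the lists, 5 of 6 chemokine windows, 6 of 10 NF-kB subunit and inhibitor windows and 2 of 9 interleukin windows held the NF-kB consensus. The AP-1 motif was in 1 of 6, 0 of 10 and 3 of 9 windows of the same lists. Over all 22114 windows of genes with 1 window, measured or not, 5.57% held the NF-kB consensus and 8.05% the AP-1 motif. A match is a description of the letters and not a binding site.

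Receptors for these ligands were mixed, with 7 of 22 measured cytokine and growth factor receptor genes at least 2-fold higher and 2 lower (median 0.49). Once the length and GC trend was subtracted 5 were higher and none lower. IL13RA2, a decoy receptor for interleukin 13, was at 18.8 TPM after compound 2 and 0.173 TPM after DMSO (4.08). IL6ST, the shared signalling chain gp130, was at 146 and 19.0 TPM after compound 2 and DMSO (2.88), and OSMR, which pairs with it, at 139 and 55.1 TPM (1.32). TNFRSF9, also known as 4-1BB, was at 15.8 TPM after compound 2 and 1.19 TPM after DMSO (2.94). IL1R2, the decoy receptor for interleukin 1, was at 0.474 TPM after compound 2 and 2.39 TPM after DMSO, both low levels. Its log2 ratio was -1.20, or -0.86 with that trend subtracted, opposite to the ligands IL1A and IL1B.

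Immediate early and AP-1 genes held 8 higher and no lower gene among 22 measured, with a median log2 ratio of 0.84, and 5 higher under median-of-ratios scaling. KLF6, a zinc-finger factor, was at 93.4 TPM after compound 2 and 10.1 TPM after DMSO (3.09). ATF3, a stress-responsive AP-1 partner, was at 46.2 and 9.08 TPM (2.23), and EGR1, an ERK-responsive factor, at 58.6 and 12.6 TPM (2.13) after compound 2 and DMSO. In the list of ERK feedback phosphatases and Sprouty genes 8 of 19 measured were higher and 1 lower (median 0.78). That list also holds SPRED genes, ETV4, ETV5 and PHLDA1. DUSP5, a nuclear ERK phosphatase, was at 182 TPM after compound 2 and 26.6 TPM after DMSO (2.73). DUSP1 was at 36.4 and 6.32 TPM (2.35), DUSP10 at 25.2 and 4.47 TPM (2.26) and SPRY4, a Sprouty inhibitor of receptor signalling, at 21.2 and 5.12 TPM (1.86) after compound 2 and DMSO.

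In the EGFR system, which drives this line, 7 of 17 measured genes passed 2-fold upwards and none downwards (median 0.58), and 4 did so with the length and GC trend subtracted. The ligand genes AREG, TGFA and BTC did not pass, with log2 ratios of 0.58, 0.22 and 0.21, nor did the receptor genes ERBB2 and ERBB3, with -0.94 and -0.16. EGFR (chromosome 7, 55019021 to 55211628) was at 1685 TPM after compound 2 and 680 TPM after DMSO (1.31), a log2 ratio of 0.72 with the length and GC trend subtracted. The ligand genes HBEGF and EREG were at 16.3 and 550 TPM after compound 2 and at 2.99 and 146 TPM after DMSO (2.12 and 1.90). ERRFI1, which encodes the receptor inhibitor MIG6, was at 568 TPM after compound 2 and 166 TPM after DMSO (1.77). CBL, the ubiquitin ligase that sends the receptor for degradation, was at 14.7 and 4.97 TPM (1.39), and the ligand gene NRG1 at 89.9 and 30.5 TPM (1.53) after compound 2 and DMSO. The protein kinase C genes themselves moved less. Of 13 measured genes of the kinases, their relatives and diacylglycerol handling 2 were at least 2-fold higher, a share near the background of 12.6%. These were PRKCI, at 47.7 TPM after compound 2 and 17.4 TPM after DMSO (1.40), and RASGRP3, at 8.95 and 3.64 TPM (1.10). With the length and GC trend subtracted they had 0.80 and 0.67, and PRKCD was then the 1 member past 2-fold (1.30, against 0.99 without that step).

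Matrix proteases held the highest ratio of all, beside lower relatives. Of 15 measured genes in the list of matrix metalloproteinases and inhibitors 6 were at least 2-fold higher and 2 lower. With the length and GC trend subtracted 4 were higher and 2 lower. That list also holds ADAM genes, ADAMTS15 and BSG. ADAM10 and ADAM17 were among the 6 higher, with log2 ratios of 1.75 and 1.67, or 0.73 and 0.90 with the trend subtracted. MMP1, the interstitial collagenase (chromosome 11, 102789920 to 102798160), was at 1852 TPM after compound 2 and 9.04 TPM after DMSO, the highest log2 ratio of all measured genes (7.53). MMP10, for stromelysin 2, and MMP9, for gelatinase B, were listed at 0 after DMSO and at 78.1 and 19.8 TPM after compound 2. MMP24 and MMP7, for a membrane-bound metalloproteinase and for matrilysin, were lower, at 10.4 and 11.9 TPM after compound 2 against 76.8 and 71.5 TPM after DMSO (-2.76 and -2.49). Of 18 measured plasminogen activators, receptor and serpins 8 were higher and 3 lower. PLAU and PLAUR, the urokinase and its receptor, were at 2423 and 751 TPM after compound 2 and at 642 and 165 TPM after DMSO (1.92 and 2.18). SERPINB7, a clade B serpin, was at 128 TPM after compound 2 and 3.39 TPM after DMSO (4.87). SERPINB2, which encodes plasminogen activator inhibitor 2, was listed at 0 after DMSO and at 13.9 TPM after compound 2, with 24.4% of its 31-base words in other genes. SERPINA6, for corticosteroid-binding globulin, was at 0.753 TPM after compound 2 and 22.7 TPM after DMSO (-3.76).

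Laminins anchor epithelia to their basement membrane, and integrins are their receptors and those of other matrix proteins. LAMB3 was at 1570 TPM after compound 2 and 146 TPM after DMSO (3.42), and LAMA3 at 518 and 90.4 TPM (2.51). The integrins ITGA6, a laminin receptor subunit, and ITGA2, a collagen receptor subunit, were at 234 and 482 TPM after compound 2 against 47.0 and 28.0 TPM after DMSO (2.29 and 4.06). ITGAV was at 62.0 TPM after compound 2 and 9.66 TPM after DMSO (2.56), and ICAM1, the leukocyte adhesion molecule, at 826 and 170 TPM (2.27). The laminin genes LAMC1, LAMB1 and LAMA5 did not pass 2-fold, with log2 ratios of 0.14, -0.11 and -0.49, and neither did the integrin genes ITGA3, ITGB4 and ITGB5, with -0.52, -0.40 and 0.11. In the whole list 10 of 24 measured laminin, integrin and adhesion genes were higher and 1 lower (median 0.65). With the length and GC trend subtracted the list held 9 higher and 4 lower, and a median of 0.29, and LAMC1 turned to -0.34.

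Among other secreted signals, INHBA, the activin A subunit, was at 29.6 TPM after compound 2 and 0.115 TPM after DMSO (4.78), in a list of 16 measured TGF-beta, activin and BMP genes with 4 higher and 2 lower. TGFBI, a matrix protein named for its induction by TGF-beta, was at 310 TPM after compound 2 and 991 TPM after DMSO (-1.67), and the inhibitory SMAD6 at 0.646 and 5.24 TPM (-1.92). The angiogenic list held 6 higher and 2 lower of 16. ESM1, for endocan, was at 25.5 TPM after compound 2 and 0.221 TPM after DMSO (4.44), while FGFBP1, a fibroblast growth factor carrier, was at 4.12 and 38.9 TPM (-2.96). In prostaglandin metabolism the inducible cyclooxygenase gene PTGS2 was at 71.0 TPM after compound 2 and 2.75 TPM after DMSO (4.26). After compound 2 and DMSO its constitutive relative PTGS1 was at 9.12 and 64.5 TPM (-2.69), and the prostaglandin transporter gene SLCO2A1 at 0.533 and 15.6 TPM (-3.44). That list held 2 higher and 2 lower of 12, a share of higher genes near the background of 12.6%. Its median log2 ratio of 0.26 was -0.07 with the length and GC trend subtracted.

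**Figure D2:**
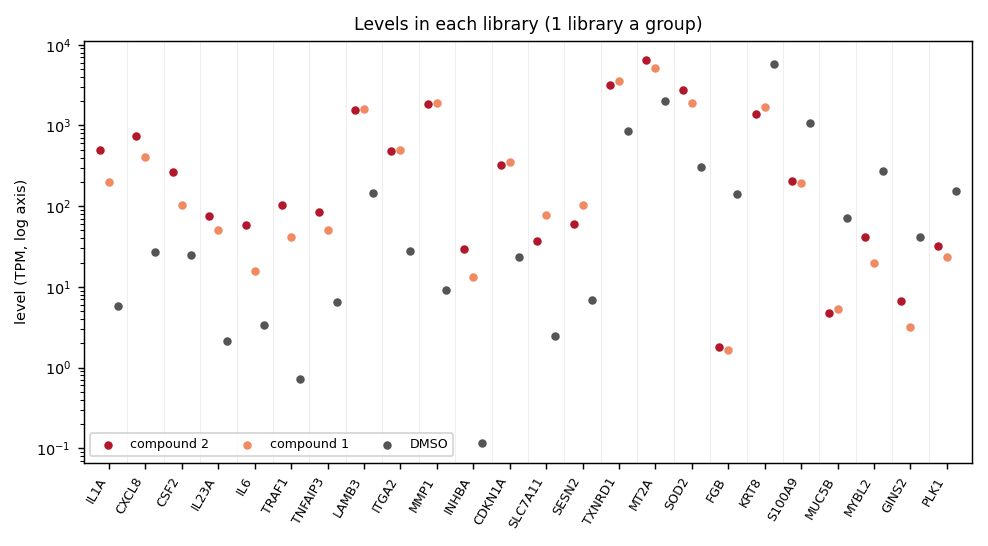
Level in TPM (y axis, log scale) of 24 genes (x axis), 1 point per library, with compound 2, compound 1 and DMSO from left to right within each gene. Compound 2 lies above DMSO from IL1A to SOD2 and below it from FGB to PLK1, and IL1A, IL6, TRAF1 and INHBA lie higher after compound 2 than after compound 1.

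The integrated stress response, in which phosphorylation of the initiation factor eIF2 lets the factor ATF4 induce amino acid genes, had 12 higher and 1 lower gene among 27 measured (median 0.86). SLC7A11, the cystine transporter, was at 36.9 TPM after compound 2 and 2.44 TPM after DMSO (3.46). SESN2, a sestrin that restrains the kinase mTORC1, was at 60.4 and 6.82 TPM (2.97), and CTH, which makes cysteine, at 77.4 and 10.2 TPM (2.81) after compound 2 and DMSO. The asparagine synthetase gene ASNS was at 280 TPM after compound 2 and 59.3 TPM after DMSO (2.22), though 83.0% of its 31-base words also occur in another annotated gene. CHAC1, a glutathione-degrading enzyme, was at 40.5 and 8.14 TPM (2.18), and PPP1R15A, which brings a phosphatase to eIF2, at 222 and 63.7 TPM (1.79) after compound 2 and DMSO. Of 20 transfer RNA synthetases 3 passed 2-fold upwards, a share near the background of 12.6%, and 1 did under median-of-ratios scaling (median 0.50 and 0.40). Among the 3 was WARS1 at 347 TPM after compound 2 and 143 TPM after DMSO (1.27). In the unfolded protein response of the endoplasmic reticulum 6 of 22 were higher and 1 lower, or 3 and 1 once the length and GC trend was subtracted. DNAJB9, a chaperone partner, was at 33.7 TPM after compound 2 and 5.19 TPM after DMSO (2.49), HERPUD1 at 177 and 48.4 TPM (1.85), and the disulfide isomerase family gene ERP27 at 2.78 and 78.2 TPM (-4.39).

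Autophagy and lysosome genes held 8 higher and 1 lower of 27 (median 0.70, or 0.33 once the length and GC trend was subtracted). SQSTM1, the autophagy receptor p62, was at 1536 TPM after compound 2 and 278 TPM after DMSO (2.46). ULK1, the kinase that starts autophagy, was at 29.1 and 4.91 TPM (2.35), and WIPI1, which marks forming autophagosomes, at 7.31 and 0.900 TPM (2.13) after compound 2 and DMSO. The lysosomal protease genes CTSS and CTSL were at 227 and 601 TPM after compound 2 and at 46.9 and 143 TPM after DMSO (2.25 and 2.06), whereas CTSH was at 15 and 66.0 TPM (-2.07).

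Redox genes went both ways. Of 29 measured NRF2 target, glutathione and aldo-keto reductase genes, 6 were higher and 3 lower, and the median was -0.06, or 0.28 with the length and GC trend subtracted. TXNRD1, for thioredoxin reductase, was at 3143 TPM after compound 2 and 857 TPM after DMSO (1.87), and HMOX1, for heme oxygenase 1, at 51.6 and 10.1 TPM (2.25). AKR1C1 and AKR1C2 were at 13.8 and 23.9 TPM after compound 2 and at 2.07 and 0.324 TPM after DMSO (2.27 and 4.23), and their split is uncertain because 35.5% and 63.5% of their 31-base words occur elsewhere. GPX2, a glutathione peroxidase, was at 2.18 TPM after compound 2 and 83.3 TPM after DMSO (-4.73), and AKR1B10 at 21.1 and 132 TPM (-2.59). Iron handling genes were 4 higher and none lower of 12, or 2 and 1 once that trend was subtracted. IREB2, the iron-regulatory protein 2, was at 40.6 TPM after compound 2 and 9.66 TPM after DMSO (1.96).

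Genes of metal binding and redox defence were among the largest gains in level. MT2A, a metallothionein that binds zinc and copper, gained the most, with 6496 TPM after compound 2 and 1999 TPM after DMSO (1.70). Metallothioneins were looked at together after this value was seen, and 3 of the 10 listed were measured. MT1X was at 148 and 47.2 TPM (1.63) and MT1F at 4.65 and 2.99 TPM (0.50) after compound 2 and DMSO. SOD2, the mitochondrial superoxide dismutase, was at 2718 TPM after compound 2 and 310 TPM after DMSO (3.13), and G0S2, an inhibitor of lipolysis, at 2377 and 297 TPM (3.0). ANXA2, a membrane-binding annexin, was at 7148 and 3418 TPM (1.06), and EEF1A1, the elongation factor, at 11910 and 7999 TPM (0.57) after compound 2 and DMSO. FTH1, the ferritin heavy chain, was at 9605 TPM after compound 2 and 7069 TPM after DMSO (0.44), with 83.0% of its 31-base words in other genes. S100A6, a small calcium-binding protein, was at 4974 TPM after compound 2 and 2532 TPM after DMSO (0.97).

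The 10 largest losses summed to 39912 TPM after compound 2 and 71943 TPM after DMSO. The epithelial keratins KRT8 and KRT18 were at 1385 and 1739 TPM after compound 2 and at 5735 and 4428 TPM after DMSO (-2.05 and -1.35). CDK4, the kinase of the G1 phase, was at 2973 TPM after compound 2 and 5995 TPM after DMSO (-1.01), and TUBA1B, the main alpha tubulin, at 2163 and 4797 TPM (-1.15). Glycolytic genes stood among them, with GAPDH at 12233 and 16988 TPM (-0.47), ENO1 at 3070 and 5948 TPM (-0.95) and TPI1 at 2353 and 4809 TPM (-1.03) after compound 2 and DMSO. GAPDH had a log2 ratio of 0.02 with the length and GC trend subtracted, so its direction turns there. MT-CO3 and MT-CO2, subunits of cytochrome c oxidase, were at 5774 and 4479 TPM after compound 2 and at 10177 and 7499 TPM after DMSO (-0.82 and -0.74), and PPIA, for cyclophilin A, at 3744 and 5567 TPM (-0.57). KRT8, KRT18, TUBA1B, GAPDH, CDK4, MT-CO2 and MT-CO3 share 35.3% to 50.9% of their 31-base words with pseudogenes, relatives or overlapping genes, so their values are less certain.

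Metabolic lists lay below the median of all measured genes. In glycolysis and the hypoxia response 7 of 28 were lower and none higher (median -0.73). ALDOC, an aldolase, was at 8.51 TPM after compound 2 and 36.7 TPM after DMSO (-1.99), EGLN3, an oxygen sensor, at 15.8 and 55.6 TPM (-1.75), and the hypoxia-induced peptide gene ADM at 10.5 and 39.9 TPM (-1.83). PFKFB3 and PFKFB4, which set the level of the activator fructose-2,6-bisphosphate, were at 43.1 and 10.9 TPM after compound 2 and at 115 and 30.6 TPM after DMSO (-1.40 and -1.41). Of 27 cholesterol and fatty acid synthesis genes 5 were lower and 1 higher (median -0.49). All 13 mitochondrially encoded genes lay below 0 without passing 2-fold. The nuclear genes of oxidative phosphorylation had a median of -0.48 with 2 of 30 lower, a share near the background of 6.56%.

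CDKN1A, which encodes the cell cycle inhibitor p21 (chromosome 6, 36676460 to 36687339), was at 328 TPM after compound 2 and 23.2 TPM after DMSO (3.77). It headed the p53 list, where 10 of 26 were higher and 1 lower (median 0.50). The pro-apoptotic BBC3, or PUMA, was at 9.85 TPM after compound 2 and 1.35 TPM after DMSO (2.21), the kinase gene PLK3 at 50.6 and 6.72 TPM (2.74), and RRM2B, a p53-induced ribonucleotide reductase subunit, at 31.8 and 9.43 TPM (1.65). The antiproliferative BTG1 was at 66.2 TPM after compound 2 and 16.3 TPM after DMSO (1.96). Another CDK inhibitor gene, CDKN2C, was lower, at 0.783 TPM after compound 2 and 10.4 TPM after DMSO (-2.68). CDKN2B had a log2 ratio of 1.30 and CDKN3 of -1.58, while CDKN1B, CDKN2A and CDKN2D lay between -0.24 and 0.07. Once the length and GC trend was subtracted the p53 list held 5 higher and none lower. In the BCL2 and caspase list 5 of 27 were higher and 2 lower, a share of higher genes near the background of 12.6%. Members that block death were among the higher ones, XIAP at 67.7 TPM after compound 2 and 12 TPM after DMSO (2.41) and BCL2A1 at 259 and 62.8 TPM (2.03), and so was the death-promoting BIK, at 247 and 56.0 TPM (2.12).

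Replication and mitosis genes were the lists with the highest share of lower genes. Among 37 measured genes of the replication fork and nucleotide synthesis, 31 lay at least 2-fold below DMSO and none above (median -1.48), against 6.56% lower among all measured genes. GINS2, a subunit of the replicative helicase, was at 6.68 TPM after compound 2 and 41.4 TPM after DMSO (-2.46). TK1 and TYMS, which make thymidine nucleotides, were at 50.7 and 38.8 TPM after compound 2 and at 236 and 162 TPM after DMSO (-2.19 and -2.03). The origin-licensing genes ORC1 and CDT1 were at 16.1 and 14.1 TPM after compound 2 against 64.5 and 51.6 TPM after DMSO (-1.93 and -1.80), and RRM2, a ribonucleotide reductase subunit, at 87.3 against 302 TPM (-1.78). Of 40 measured mitotic genes, 31 were lower and none higher (median -1.39). KIF20A, a kinesin of cytokinesis, was at 10.8 and 55.7 TPM (-2.27), and PLK1, the polo kinase, at 32.2 and 156 TPM (-2.25) after compound 2 and DMSO. BIRC5 and CDCA8, both of the chromosomal passenger complex, were at 16 and 14.5 TPM after compound 2 and at 74.6 and 62.2 TPM after DMSO (-2.15 and -2.03). MKI67, the proliferation marker Ki-67, was at 14.5 TPM after compound 2 and 41.8 TPM after DMSO (-1.47).

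Of 20 measured E2F, MYBL2, FOXM1 and RB family genes 5 were lower and 2 higher, or 5 and none with the length and GC trend subtracted. MYBL2, which drives mitotic genes, was at 41.5 TPM after compound 2 and 273 TPM after DMSO (-2.69), FOXM1 at 63.2 and 230 TPM (-1.85), and E2F1 at 15.9 and 51.6 TPM (-1.64). E2F8, a repressor induced in S phase, was at 2.96 and 17.0 TPM (-2.18), while E2F3 was at 15.7 TPM after compound 2 and 6.58 TPM after DMSO (1.14). MYC, a driver of ribosome and growth genes, was at 352 TPM after compound 2 and 220 TPM after DMSO (0.68). Genes of ribosome biogenesis around it held 3 higher and none lower of 24, a share of higher genes near the background of 12.6%. Their median of 0.08 was -0.02 under median-of-ratios scaling. Cyclins and CDK inhibitors together held 5 higher and 8 lower of 19, with CCNB1, the mitotic cyclin B1, at 124 TPM after compound 2 and 387 TPM after DMSO (-1.64).

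The start regions of 3 such genes, chosen because they hold a match, are shown with matches to the E2F motif TTTNNCGC or to the CHR element TTTGAA in capitals, both searched on both strands. E2F sites are the usual elements of replication genes, and the CHR is that of mitotic genes bound by complexes with MYBL2 and FOXM1. The GINS2 window is chr16:85688905-85689204 on the minus strand, and that of MCM2, a helicase subunit, is chr3:127598161-127598460 on the plus strand with overlapping E2F matches after the start. That of PLK1 is chr16:23678639-23678938 on the plus strand, with the CHR element shortly before the start. MCM2 was at 48.6 TPM after compound 2 and 159 TPM after DMSO (-1.69), and was chosen after its values were seen. The CDC20 window also held CHR matches, whereas those of KIF20A and CCNB1 held no CHR element and that of MYBL2 neither motif. GINS2 and PLK1 have their levels above.
GINS2: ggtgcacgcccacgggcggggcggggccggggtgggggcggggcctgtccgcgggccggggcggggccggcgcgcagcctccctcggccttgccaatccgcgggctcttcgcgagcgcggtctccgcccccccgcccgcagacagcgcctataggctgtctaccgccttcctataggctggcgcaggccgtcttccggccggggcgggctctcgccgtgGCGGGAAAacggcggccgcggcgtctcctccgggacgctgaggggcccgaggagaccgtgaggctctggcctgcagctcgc
MCM2: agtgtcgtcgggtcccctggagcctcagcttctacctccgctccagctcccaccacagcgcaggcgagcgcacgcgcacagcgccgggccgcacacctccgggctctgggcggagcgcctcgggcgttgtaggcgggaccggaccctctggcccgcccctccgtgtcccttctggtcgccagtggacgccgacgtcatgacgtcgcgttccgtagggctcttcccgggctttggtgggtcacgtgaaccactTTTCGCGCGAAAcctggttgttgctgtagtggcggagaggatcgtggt
PLK1: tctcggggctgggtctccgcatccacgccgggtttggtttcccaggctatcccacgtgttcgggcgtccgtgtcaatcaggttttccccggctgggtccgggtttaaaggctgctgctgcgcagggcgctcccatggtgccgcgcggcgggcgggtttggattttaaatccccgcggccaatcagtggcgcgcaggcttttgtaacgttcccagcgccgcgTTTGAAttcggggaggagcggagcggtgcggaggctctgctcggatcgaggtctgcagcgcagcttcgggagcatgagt

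The E2F motif was matched in 11.4% of the 6686 measured windows and the CHR element in 9.33%, and in 6.66% and 16% of all 22114 windows. Of 418 windows of genes at least 2-fold lower, 14.8% held the E2F motif and 19.1% the CHR element, and of 801 at least 2-fold higher, 9.86% and 9.36%. Of 56 windows of genes at least 4-fold lower, 5.36% held the E2F motif, below the share in all measured windows, and 26.8% the CHR element. Among 115 at least 4-fold higher the shares were 5.22% and 12.2%. In the replication list 17 of 25 windows held the E2F motif and 1 the CHR element, and in the mitotic list 4 of 26 held the E2F motif and 18 the CHR element. For comparison, the ATF element TGATGNAA was in 1.39% of all measured windows and in 2 of 13 of the integrated stress response, and the antioxidant element TGACNNNGC in 15.7% of all and in 15.5% of those at least 2-fold higher.

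The ATR pathway itself differed by less than the replication genes. Of 19 measured checkpoint genes 5 were lower and none higher (median -0.61), and 9 were lower once the length and GC trend was subtracted. ATR was at 16 TPM after compound 2 and 10.3 TPM after DMSO, a log2 ratio of 0.59 that became -0.22 with the length and GC trend subtracted, so its direction turned there. Its partner gene ATRIP was at 4.10 TPM after compound 2 and 13.7 TPM after DMSO (-1.53), with 32.0% of its 31-base words shared, TREX1 the closest gene. CHEK1, for the kinase CHK1, was at 31.6 TPM after compound 2 and 48.7 TPM after DMSO (-0.61), and the activator gene TOPBP1 at 23.6 and 28.4 TPM (-0.26, or -0.84 with the trend subtracted). The phosphatase genes CDC25A and CDC25C, whose products CHK1 restrains, were at 11.9 and 9.06 TPM after compound 2 and at 30.9 and 25.1 TPM after DMSO (-1.30 and -1.38). CLSPN, the claspin adaptor, was at 5.29 and 11.8 TPM (-1.03), and RPA1, of the single-strand binding complex, at 58.8 and 127 TPM (-1.10) after compound 2 and DMSO.

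Repair pathways differed in how many of their genes were lower. Of 30 homologous recombination and Fanconi anaemia genes 11 were lower and none higher (median -0.68), and 17 were lower once the length and GC trend was subtracted. EXO1, a resection nuclease, was at 10.6 TPM after compound 2 and 41.4 TPM after DMSO (-1.87), and UBE2T, the Fanconi ubiquitin-conjugating enzyme, at 55.6 and 177 TPM (-1.65). Break sensing and end joining held 3 higher and 2 lower of 18 (median 0.10), a share of higher genes near the background of 12.6%. Once that trend was subtracted it held 1 and 2 (median -0.23). LIG4, the end-joining ligase, was at 15.6 TPM after compound 2 and 3.82 TPM after DMSO (1.79), and ATM at 6.37 and 2.64 TPM (1.02). ATM had a log2 ratio of 0.0045 with the trend subtracted. H2AX, the histone marked at breaks, was at 45.1 and 160 TPM (-1.81) and CHEK2 at 5.29 and 16.4 TPM (-1.47) after compound 2 and DMSO. In base, mismatch and nucleotide excision repair 1 of 28 was higher and 2 lower, a share of lower genes near the background of 6.56%, or none higher and 5 lower with the trend subtracted. The 2 lower ones were the uracil glycosylase gene UNG, at 35.4 and 118 TPM (-1.71), and NEIL3, at 4.29 and 22.2 TPM (-2.14), after compound 2 and DMSO.

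Of 11 measured fibrinogen and liver-type secreted protein genes 7 were lower and none higher (median -2.05). FGB, the fibrinogen beta chain (chromosome 4, 154562956 to 154571086), was at 1.81 TPM after compound 2 and 141 TPM after DMSO, the lowest log2 ratio of all measured genes (-5.66). Its neighbours of the same protein, FGG and FGA, were at 0.241 and 0.0560 TPM after compound 2 and at 18.4 and 3.36 TPM after DMSO (-3.96 and -2.05). The complement regulator CFI was at 5.00 TPM after compound 2 and 69.2 TPM after DMSO (-3.55), with 51.0% of its 31-base words shared. C4BPB, of the same system, was listed at 0 after compound 2 and at 3.98 TPM after DMSO.

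Keratins held 5 lower and no higher gene of 8 (median -1.19, and -0.39 without the 100 most abundant genes, a step that removes KRT8 and KRT18 themselves). KRT80 was at 30.1 TPM after compound 2 and 144 TPM after DMSO (-2.22), KRT19 at 1209 and 2463 TPM (-1.03), and KRT15 at 49.9 and 36.3 TPM (0.45). Mucin, secretory and lung lineage genes were 10 lower and 3 higher of 21 (median -0.99). OLFM4, olfactomedin 4, was at 9.13 TPM after compound 2 and 158 TPM after DMSO (-3.97), the mucin gene MUC5B at 4.77 and 71.6 TPM (-3.65), and SPDEF, a factor of goblet cells, at 1.10 and 11.8 TPM (-2.60). SOX2, a lineage factor of airway epithelium, was at 0.541 TPM after compound 2 and 5.76 TPM after DMSO (-2.13). ABCA3, the surfactant lipid transporter, was higher, at 9.86 TPM after compound 2 and 1.72 TPM after DMSO (2.00), and so were the protease inhibitor gene SLPI (1.12) and the factor gene SOX9 (1.27).

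Squamous envelope, S100 and Ly6 genes together held 6 higher and 9 lower of 24, or 8 higher and 5 lower once the length and GC trend was subtracted. Their median of -0.50 became 0.54 at a mean of at least 5 TPM. LY6D was at 32.0 TPM after compound 2 and 526 TPM after DMSO (-4.0), and S100A9 and S100A8, the calprotectin subunits, at 204 and 0.606 TPM after compound 2 against 1066 and 8.40 TPM after DMSO (-2.38 and -2.55). SPRR1B, a cornified envelope precursor, was at 51.5 TPM after compound 2 and 8.78 TPM after DMSO (2.42). It is the first of 4 consecutive measured SPRR genes on chromosome 1 with log2 ratios between 1.24 and 2.42. SPRR2A and SPRR2D among them share 51.3% and 37.1% of their 31-base words with relatives. Junction genes split, with 5 of 21 higher and 3 lower, or 3 of each once that trend was subtracted. The tight junction genes CLDN1 and TJP1 were at 45.9 and 83.4 TPM after compound 2 and at 11.4 and 31.1 TPM after DMSO (1.92 and 1.40), while CLDN2 was at 0.198 and 8.16 TPM (-2.94). GJB1, the gap junction connexin 32, was at 0.385 TPM after compound 2 and 34.7 TPM after DMSO (-4.69), and the endocytic adaptor gene EPN3 at 0.875 and 33.5 TPM (-4.20). Mesenchymal genes were 2 higher and 2 lower of 14, a share of higher genes near the background of 12.6%. VIM, for vimentin, was at 153 TPM after compound 2 and 23.6 TPM after DMSO (2.65). ZEB1, a repressor of epithelial genes, was at 4.11 and 0.277 TPM (2.00). The lower ones were LOXL2, a collagen-crosslinking oxidase (-1.74), and TGFBI, given above, while FN1, TPM1 and MYL9 had log2 ratios of -0.40, -0.57 and -0.57.

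Immune recognition genes showed no common direction. Of 24 measured checkpoint ligand and antigen presentation genes 2 were higher and 4 lower, or 6 and 4 once the length and GC trend was subtracted. CD274 and PDCD1LG2, the PD-1 ligands, were at 40.3 and 4.37 TPM after compound 2 and at 12.4 and 0.571 TPM after DMSO (1.62 and 1.77). The class II genes HLA-DRA, HLA-DRB1, HLA-DMA and CD74 were at 0.60, 1.21, 1.02 and 0.844 TPM after compound 2 and at 8.07, 8.12, 8.17 and 5.67 TPM after DMSO, log2 ratios of -2.50, -2.04, -2.18 and -1.86. HLA-DRA is also among the 12 leukocyte markers set against the label above, of which CD3E and MS4A1 were at 0 TPM after compound 2 and at 0.255 and 0.147 TPM after DMSO. Interferon-stimulated genes held 8 higher and 1 lower of 27 (median 0.24), with IFI44L at 114 TPM after compound 2 and 24.8 TPM after DMSO (2.16) and OASL at 3.22 and 13.5 TPM (-1.78).

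Heat shock and chaperonin genes stood near the median of all genes, 1 higher and none lower of 25, and their median of 0.02 was -0.08 under median-of-ratios scaling. DNAJB4 was that gene, at 20.1 TPM after compound 2 and 8.69 TPM after DMSO (1.13), and HSPE1, the mitochondrial chaperonin 10, was at 343 and 625 TPM (-0.87). Tubulins held 1 higher and 3 lower of 11, or 1 of each once the length and GC trend was subtracted. TUBB4B and TUBB, beta tubulins, were at 778 and 615 TPM after compound 2 and at 1629 and 1282 TPM after DMSO (-1.07 and -1.06), and TUBA1A at 32.6 and 10.6 TPM (1.54).

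A few genes at the ends of the ranking lie outside the groups above. MAST4, a microtubule-associated kinase, was at 62.3 TPM after compound 2 and 2.21 TPM after DMSO (4.30). SPP1, which encodes the secreted phosphoprotein osteopontin, was at 48.5 TPM after compound 2 and 605 TPM after DMSO (-3.61), and LGALS2, a galectin gene, at 0.207 TPM after compound 2 and 12.4 TPM after DMSO (-3.48).

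**Figure D3:**
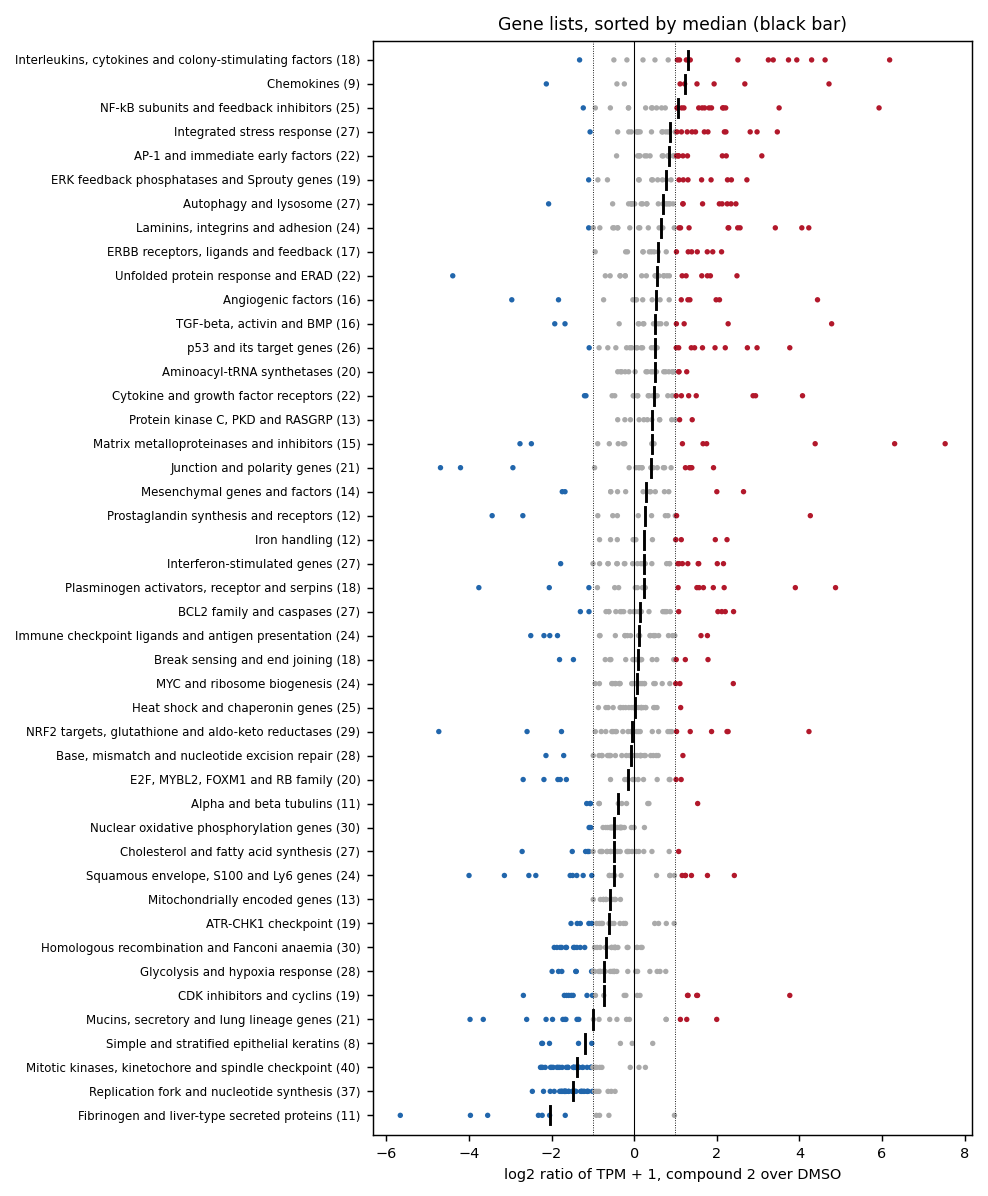
Log2 ratio of TPM + 1 after compound 2 over DMSO (x axis) for each measured member (point) of 45 gene lists (rows, with the number of measured members in brackets). Black bars are medians, red points are at least 2-fold higher and blue points at least 2-fold lower. Interleukins, chemokines and NF-kB genes have medians of 1.31, 1.22 and 1.05 at the top, and fibrinogen, replication and mitosis genes have -2.05, -1.48 and -1.39 at the bottom.

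Genes listed at 0 after DMSO and at 5 TPM or more after compound 2 numbered 8, and the reverse held for 2. Besides the MMP and serpin genes already given, SCNN1D, a sodium channel subunit, was at 12.6 TPM after compound 2. The defensin gene DEFB103A was at 20.7 TPM in that library, and all of its 31-base words occur in another gene. COMMD3-BMI1, ZBED6 and RSC1A1, at 11.7, 7.85 and 5.92 TPM after compound 2, share 98.1%, 95.8% and 100% of theirs with genes they overlap. The 2 in reverse were CHIA, a chitinase gene, at 5.03 TPM after DMSO, and an unnamed gene (ENSG00000267303) at 10.3 TPM after DMSO that shares 94.1% of its words with RAVER1.

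Of the other genes named above, the share of 31-base words found elsewhere was 63.2% for TUBA1A, 60.6% for TYMS and 58.8% for HSPE1. It was 51.7% for SQSTM1, 49.3% for IKBKG, 42.6% for TPM1, 37.0% for TUBB, 36.0% for AKR1B10, 34.0% for EEF1A1 and 33.5% for RRM2. For all of these genes the reads could have been divided with another gene.

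The difference from DMSO followed transcript length and base composition across the genome. With the genes cut into 4 equal groups by transcript length, 23.1% of the longest group were at least 2-fold higher and 3.05% lower, and 6.31% of the shortest group were higher and 10.5% lower. In 4 such groups by GC content, 26.0% of the lowest group were higher and 2.84% lower, and 4.99% of the highest group were higher and 10.3% lower. The log2 ratio had a Spearman correlation of 0.32 with length and of -0.39 with GC content across 11542 genes, which are no replicates of each other, and of -0.01 with level across 11600. Of the 367 listed genes past 2-fold, none changed sign with the length and GC trend subtracted, and 297 stayed past 2-fold. The 4 other scalings multiply each library by 1 factor. These factors were too close to each other to turn the sign of a 2-fold difference, so they could not test it. Consecutive measured genes past 2-fold in the same direction formed 12 higher runs of 4 or 5 genes and 1 lower run. The 5 genes KLF6, AKR1C1, AKR1C2, AKR1C3 and NET1 on chromosome 10 were such a run, with log2 ratios between 1.03 and 4.23.

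**Figure D4:**
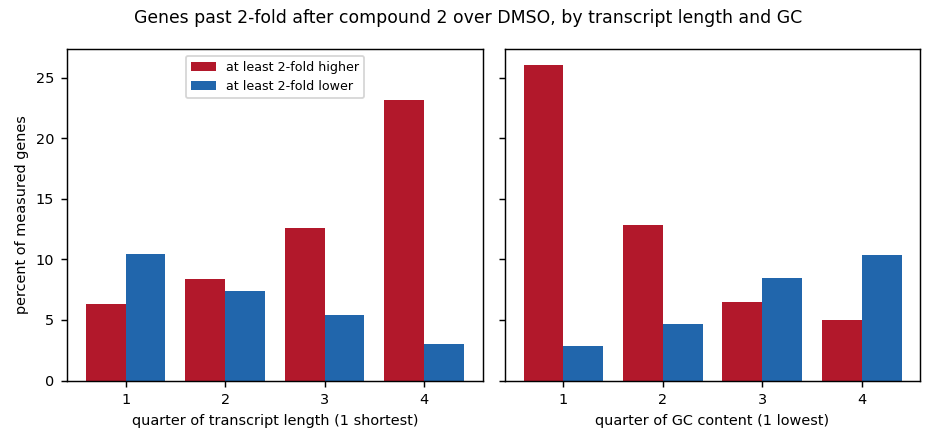
Percent of measured genes (y axis) at least 2-fold higher (red) and at least 2-fold lower (blue) after compound 2 over DMSO, in 4 equal groups by transcript length (left panel) and by GC content (right panel), numbered from shortest or lowest. Higher genes make up 23.1% of the longest group and 26.0% of the group of lowest GC content.

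Compound 1, the other daphnane of the series, was given at the same dose for the same time, so the compounds could be set side by side in 1 pair of libraries. The compound 2 library lay close to the compound 1 library. Only 34 genes were at least 2-fold higher after compound 2 than after compound 1, which is 0.293% of the measured genes, and 64 were lower, which is 0.552%. At the 4-fold limit 2 were higher and 7 lower, and no gene reached 8-fold in either direction. No structural difference between the compounds was given in the sources used here.

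Several inflammatory genes were higher after compound 2 than after compound 1. IL6 was at 57.6 TPM after compound 2 and 15.9 TPM after compound 1, which gave a log2 ratio of compound 2 over compound 1 of 1.79. After compound 2 and compound 1, with the same ratio in brackets, CXCL3 was at 116 and 40.9 TPM (1.48), IL1A at 493 and 197 TPM (1.32), CSF2 at 264 and 104 TPM (1.33), and TRAF1 at 104 and 41.7 TPM (1.30). CXCL5 was at 1436 TPM after compound 2 and 521 TPM after compound 1 (1.46), with 615 TPM after DMSO, so DMSO lay between the compounds. CXCL1 was at 82.0 TPM after compound 2, 30.3 TPM after compound 1 and 110 TPM after DMSO, with a log2 ratio of compound 2 over compound 1 of 1.41. SERPINB2 was at 13.9 and 3.44 TPM (1.75), MMP9 at 19.8 and 7.97 TPM (1.22) and INHBA at 29.6 and 13.4 TPM (1.09) after compound 2 and compound 1. Of the named genes here CSF2, IL1A, TRAF1, CXCL5, CXCL1, MMP9 and INHBA were chosen from the lists after their ratio to compound 1 was seen. By list, 3 of 9 chemokine and 3 of 18 interleukin genes were at least 2-fold higher after compound 2 than after compound 1 and none lower. The median log2 ratio of compound 2 over compound 1 was 0.74 for the chemokines and 0.15 for the interleukins, against -0.01 for all measured genes. PTGS2, MMP10 and MMP1 were not higher, with -0.38, -0.33 and -0.03.

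Some stress and redox genes were lower after compound 2 than after compound 1. IGFBP1, which binds insulin-like growth factors, was at 69.0 TPM after compound 2 and 458 TPM after compound 1 (-2.71), with 31.5 TPM after DMSO. WNK4, a kinase that regulates ion transport, was at 1.24 and 14.9 TPM (-2.83) and AMMECR1L at 21.9 and 130 TPM (-2.52) after compound 2 and compound 1. From the lists, and chosen after this ratio was seen, AKR1C1 was at 13.8 TPM after compound 2 and 54.1 TPM after compound 1 (-1.89). SLC7A11 was at 36.9 and 77.2 TPM (-1.04), GDF15, a stress-induced cytokine, at 39.2 and 88.1 TPM (-1.15) and AGR2, a disulfide isomerase of secretory cells, at 99.8 and 262 TPM (-1.38) after compound 2 and compound 1. Of 29 redox genes 4 were at least 2-fold lower after compound 2 than after compound 1, and of 27 integrated stress response genes 2, with medians of -0.37 and -0.38.

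By their medians, proliferation genes were nearer to DMSO after compound 2 than after compound 1. The median log2 ratio of compound 2 over compound 1 was 0.57 for replication genes and 0.52 for mitotic genes, though no gene of either list passed 2-fold in this comparison. The DMSO library is the same for both compounds. GINS2 was at 6.68 TPM after compound 2, 3.15 TPM after compound 1 and 41.4 TPM after DMSO. MYBL2 was at 41.5, 19.6 and 273 TPM in the same order, with a log2 ratio of compound 2 over compound 1 of 1.04, and MKI67 at 14.5, 8.15 and 41.8 TPM (0.76). ATR was at 16 TPM after compound 2 and 15.5 TPM after compound 1 (0.04), ATRIP at 4.10 and 4.05 TPM (0.01), and CHEK1 at 31.6 and 27.8 TPM (0.18). EGFR and CDKN1A were at 1685 and 328 TPM after compound 2 and at 1579 and 349 TPM after compound 1 (0.09 and -0.09).

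**Figure D5:**
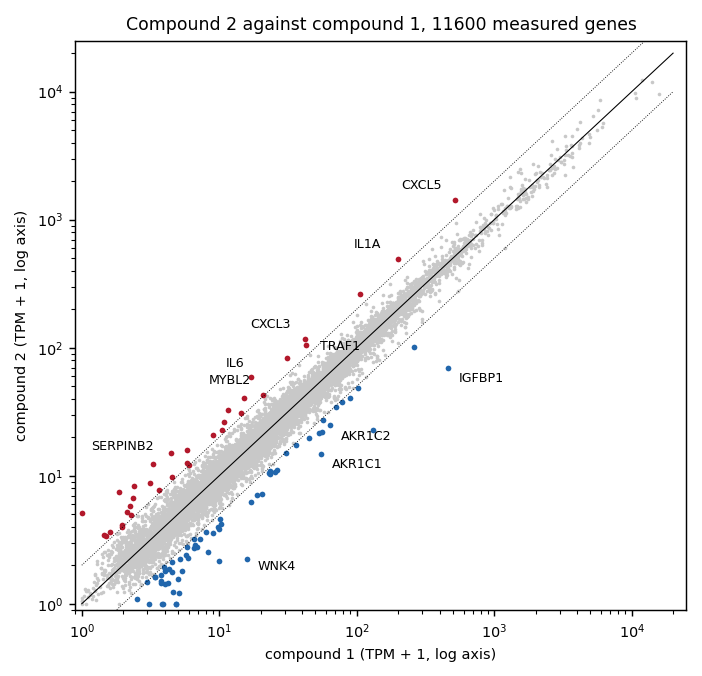
TPM + 1 after compound 2 (y axis, log scale) against TPM + 1 after compound 1 (x axis, log scale), 1 point for each of 11600 measured genes. The solid line marks equal values and dotted lines the 2-fold limits. The 34 red points lie at least 2-fold higher after compound 2, among them IL6, CXCL3 and IL1A, and the 64 blue points at least 2-fold lower, among them IGFBP1, WNK4 and AKR1C1.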

How the data were processed

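RNA sequencing measured messenger RNA in 3 libraries of HCC827 cells, 1 for each of compound 2, compound 1 and DMSO. Trizol was used for the RNA and an Illumina TruSeq RNA kit for the libraries, per the labels' protocols. Strand marking was not stated, so overlapping and antisense genes cannot be told apart. Bowtie 0.12.2 and the builds GRCh38.p12 and mm8 are listed, with no role, per the submitters' processing notes. Which annotation and counter were used is not given in the sources used here.

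Into 1 table the authors deposited 1 value per gene and library under headers that name FPKM, and each deposited column sums to 1000000, so the values were treated as TPM. TPM keeps no depth, read counts were not used, and no interval was computed. GENCODE 29 on GRCh38 held 20113 of the 20332 identifiers and gave coordinates, and the longest transcript gave length, GC content and the 31-base words that occur in any other gene. A symbol was missing for 617 genes. TPM shares a fixed total, so genes that gain share lower all others.

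The log2 ratio was that of TPM + 1, for genes whose mean over the 3 libraries reached 1 TPM, and genes past 2-fold were counted with no test. The ratio is smaller than the true fold for low genes, and no fold is given against a value of 0. The computation was tested on simulated data. The 45 lists, 1 for each gene group described, hold 934 distinct measured genes. Members and lists were chosen with earlier results of these data known. Named genes were the 15 highest and 15 lowest ratios, the 10 largest gains and losses in TPM, up to 6 members per list with the largest absolute ratio and any further member past 4-fold, 8 genes given always, and the 10 highest and 10 lowest ratios to compound 1. Some exceptions are marked where they stand. Others, many of them list members within 2-fold, are not marked. Not all genes that this rule names are printed, and a few are not reported here. Alternatives were another pseudocount, another filter on low values, 4 other scalings, the subtraction of a trend with transcript length and GC content (medians over bins), lists without their leading gene, and other fold limits. Promoter windows came from RefSeq on GRCh38.p14, matched by symbol, and shares are over genes with exactly 1 window.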

Additional observations from a re-analysis of the deposited data

How the results depend on the processing

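No paired analysis was possible because each group held 1 library. Over 57 named genes and 491 recomputed ratios to DMSO none changed sign where the main ratio passed 2-fold, and 45 moved beyond the margin set for them. Only the length and GC subtraction could have turned such a sign. A pseudocount or filter leaves the sign as it is, and the scaling factors lie too close to each other. Of 449 recomputed list medians 437 kept their sign. The chemokine median turned to -0.00926 with no filter on low values, where the fibrinogen list had -0.73 and the keratins -0.14. With a pseudocount of 5, 804 genes were higher and 431 lower than DMSO, 13 and 16 past 2-fold against compound 1, and the fibrinogen median was -0.85. With a pseudocount of 0.1, 107 genes were higher and 152 lower than compound 1. At a mean of at least 5 TPM these were 22 and 31. The medians were then 1.06 for plasminogen activators and serpins, 3.25 for interleukins and 0.54 for squamous envelope, S100 and Ly6 genes. Without the 100 most abundant genes the keratin median was -0.39 and that of iron handling 0.96. With the length and GC trend subtracted 791 genes were higher than DMSO. At a 1.5-fold limit 2970 genes were higher and 1833 lower than DMSO, and 300 and 364 against compound 1, and at a 4-fold limit 207 and 109, and 2 and 7. The cause of these shifts was not tested, beyond what each setting does by construction. Read counts were not used, so the depth behind low values is unknown, and with 1 library per group no error can be given.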

Other observations

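Gene families grouped by the stem of their symbol, with at least 15 measured members, gave 76 families. The highest median log2 ratios to DMSO after the myosins (MYO, 0.76) belonged to SEC genes, of secretory vesicle traffic (0.70), in which 5 of 23 passed 2-fold upwards and none downwards. SEC23A and SEC24D had the highest ratios among them. The lowest medians belonged to the MRPL genes, proteins of the large mitochondrial ribosomal subunit (-0.47, 49 measured, 1 lower and none higher), the RAD genes (-0.46) and the TIMM genes, of mitochondrial protein import (-0.43). The 418 measured ZNF zinc-finger genes had 46 higher and 8 lower (median 0.18), a share of higher genes near that of all measured genes. The median transcript length was 8673 bases in the myosins and 4259 in the SEC genes, against 1693 in the MRPL and 2227 in the TIMM genes, and the part of length in these medians was not tested.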
